A study of Mus musculus with 3 samples.

Results

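The Kruppel-like factors (KLFs) are a family of transcription factors, and 10 of them, Klf2, Klf3, Klf4, Klf6, Klf7, Klf9, Klf10, Klf11, Klf13 and Klf15, were followed in endothelial cells of the mouse renal cortex. They were taken by gene name, each at the probeset of that gene alone with the highest mean, and are 10 of the 19938 genes with a probeset of their own on the array. Each of the 10 had 1 such probeset, and so had 7 further family members, Klf1, Klf5, Klf8, Klf12, Klf14, Klf16 and Klf17. The cells came from adult mice of unknown sex carrying the Tg(TIE2GFP)287Sato transgene, on a mixed background primarily CD-1, in which the promoter of Tek, the gene of the Tie2 receptor, drives green fluorescent protein (GFP). Without its medulla, each kidney was loosened with collagenase, a mesh held back the glomeruli, and after trypsin the fluorescent cells were sorted. RNA of 1 kidney per sample went through 1 round of amplification and onto a 1-colour whole-transcript array. All 3 samples belong to a single group, so there was no control sample and no contrast between conditions.

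KLFs bind GC-rich and CACCC sequences through zinc fingers at their carboxy terminus and differ mainly in the rest of the protein, which recruits activators or repressors. In endothelium, Klf2 and Klf4 are known as the factors that steady blood flow switches on, through a kinase chain ending in Erk5 (Mapk7) and the MEF2 proteins. They raise genes that keep blood fluid and vessels relaxed and restrain genes of adhesion and clotting.

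The stretch just before the transcription start of Klf2 and Klf4 is shown because the flow chain ends on MEF2 and because KLFs can bind each other's promoters. Both are the 250 bases before the start in RefSeq, mouse assembly GRCm38.p6, written 5′ to 3′ on the strand of the gene, Klf2 at chr8:72318812-72319061 (plus strand) and Klf4 at chr4:55532476-55532725 (minus strand). Capitals mark matches on either strand to the MEF2 consensus, to CACCC (or its complement GGGTG) and to the GC box GGGCGG (or CCGCCC), and neighbouring GC boxes may overlap.
Klf2: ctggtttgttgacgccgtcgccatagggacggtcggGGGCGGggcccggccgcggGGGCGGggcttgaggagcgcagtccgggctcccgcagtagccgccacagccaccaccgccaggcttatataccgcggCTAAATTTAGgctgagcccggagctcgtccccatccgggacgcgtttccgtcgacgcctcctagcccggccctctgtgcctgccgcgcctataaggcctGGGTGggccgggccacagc
Klf4: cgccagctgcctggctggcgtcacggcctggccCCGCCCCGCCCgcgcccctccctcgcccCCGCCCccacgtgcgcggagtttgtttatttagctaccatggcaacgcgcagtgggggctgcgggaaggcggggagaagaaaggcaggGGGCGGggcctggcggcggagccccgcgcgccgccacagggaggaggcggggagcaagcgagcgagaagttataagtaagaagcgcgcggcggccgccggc
The Klf2 window held 1 MEF2 match, 118 to 109 bases before the start, 1 CACCC match at 19 to 15 bases and 2 GC boxes. The Klf4 window held 4 GC boxes, of which the first pair shares 1 base, and neither a MEF2 nor a CACCC match. Of the 10 factors 9 had such a window in the RefSeq table, all but Klf10. The MEF2 consensus was found in 1 of the 9 (Klf2), against 2.92% of all 32851 windows of this length. CACCC was found in 6 (Klf2, Klf3, Klf7, Klf9, Klf13 and Klf15), against 52.0% of all windows, and GGGCGG in 8, all but Klf9, against 32.7%. The E-box CACGTG, a palindrome, was found in 4 (Klf4, Klf6, Klf11 and Klf15), against 6.02%. These are matches of letters in a window of the genome, and no binding was measured.

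The arrays were alike in their overall level. Their medians on the deposited log2 scale were 5.70, 5.70 and 5.66, correlations between pairs over all probesets were 0.941 to 0.950 (Pearson's r), and 10236 to 10601 of 35557 probesets reached a signal of 100 (6.64 on the log2 scale). The methods name that signal as a filter on raw levels, of at least 100 in 3 samples. Here it served, on the deposited normalized values, as the limit against which the mean of each gene was tested. All 12 endothelial markers were above it. So were 9 of 10 proximal tubule markers, 2 of 4 of the thick ascending limb and 2 of 5 of the distal and collecting tubule, while 3 of 3 podocyte and 8 of 8 leukocyte markers lay below it, as did the 1 erythroid marker measured, Alas2. Of 7 markers of smooth muscle and pericytes, 1 was above (Rgs5), 2 below and 4 on neither side. Over all genes 22.9% were above and 65.0% below. Without replicate 1 or without replicate 3, 8 endothelial markers were still called above. Of the 10 proximal tubule markers, 7 were still called above without replicate 1 and 6 without replicate 3. Both calls of the thick limb and both of the distal and collecting tubule (Slc12a3 and Calb1) were lost in each of these fits. A fit without 1 replicate has 1 residual degree of freedom instead of 2, so a call can be lost with little change in level. Aqp2 of the collecting duct was called above without replicate 3, but only 2 equal values of 6.79 remained there. With all 3 samples it was on neither side (limma adjusted p = 0.163). Signal summed over the 10 proximal tubule markers was 15692.5, 13062.3 and 13567.4 in replicates 1, 2 and 3, beside 12575.1, 13069.2 and 10759.2 over the 12 endothelial markers. No KLF value below can therefore be assigned to endothelial cells alone, and in a sorted pool fewer cells with an RNA and less RNA per cell cannot be told apart.

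Of the 10 factors, 7 were above the limit and 3 below it (limma, Benjamini-Hochberg adjusted p under 0.05 over all probesets). Above were Klf2, Klf3, Klf4, Klf6, Klf7, Klf9 and Klf10, and below were Klf11, Klf13 and Klf15. Over all 19938 genes 22.9% were called above and 65.0% below. With no test, the same 7 reached a signal of 100 in every sample, as did 28.0% of all genes. The median level of the 10 was 7.19 on the log2 scale (a signal of 146), against 5.88 (59.0) over all genes. The levels below are set against this limit and not against one another, since probesets differ in how brightly they report the same amount of RNA.

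**Figure D1:**
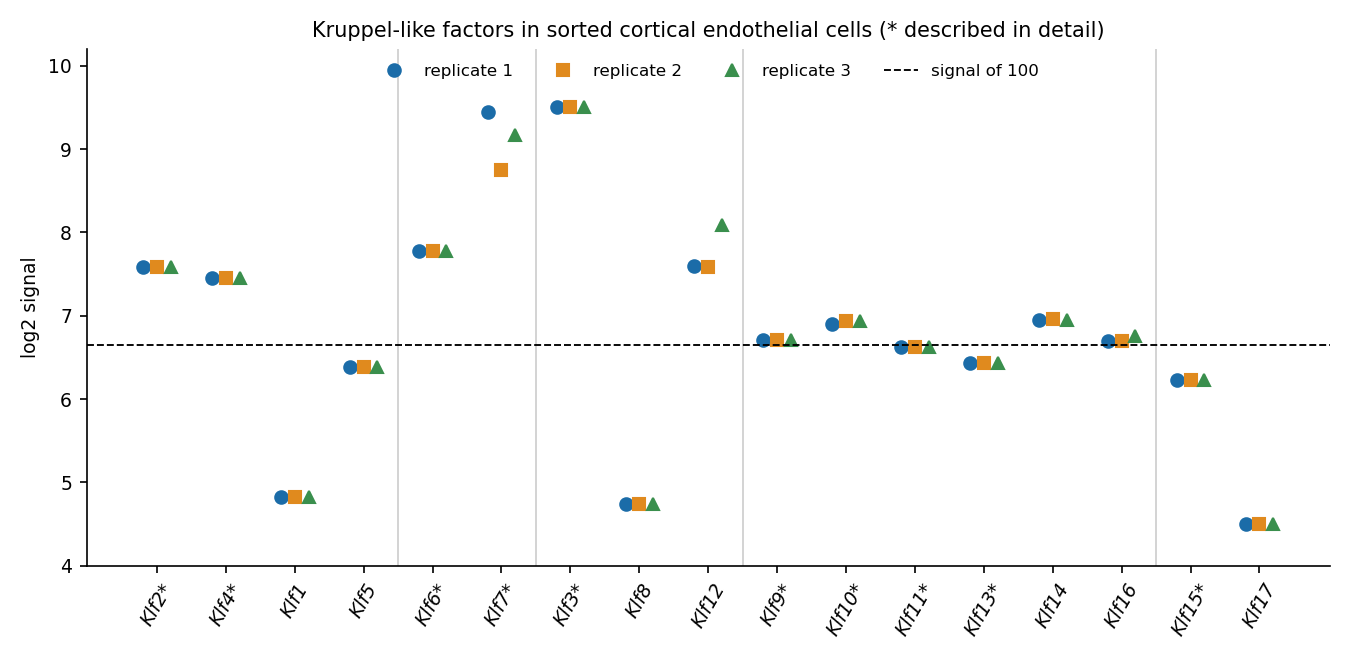
Level of each Kruppel-like factor (deposited log2 value) in the 3 samples, 1 point per sample, with the dashed line at a signal of 100 (6.64), an asterisk on the 10 factors described in detail and upright lines between groups of related factors. Klf2, Klf3, Klf4, Klf6 and Klf7 lie above the line in every sample, Klf9 (6.71) and Klf11 (6.63) lie next to it on either side, and the 3 points of most genes are level because their values are equal.

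One property of the values bears on every level and test given here. For 8 of the 10 factors the deposited values were identical in the 3 samples to all 5 decimals. The exceptions were Klf7 and Klf10. Over all genes 10204 of 19938 (51.2%) had 3 equal values, 67.2% of genes with a mean under 5 on the log2 scale, 46.7% of those from 6 to 7, 29.2% of those from 7 to 8 and 10.0% of those at 10 or more. Of the 17 KLFs, 3 of 3 under 5, 5 of 8 from 6 to 7, 3 of 4 from 7 to 8 and 1 of 2 from 9 to 10 had equal values. An SD of 0 is not the spread between kidneys, so an adjusted p of such a gene rests on that equality. The test was therefore repeated with these genes given the median variance of the other probesets. Genes with unequal values kept their own variance there, but their p-values changed too, since limma fits its prior variance over all probesets. By that version 5 of the 10 stayed above (Klf2, Klf3, Klf4, Klf6 and Klf7) and 1 below (Klf15), against 21.1% and 62.2% of all genes.

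**Figure D2:**
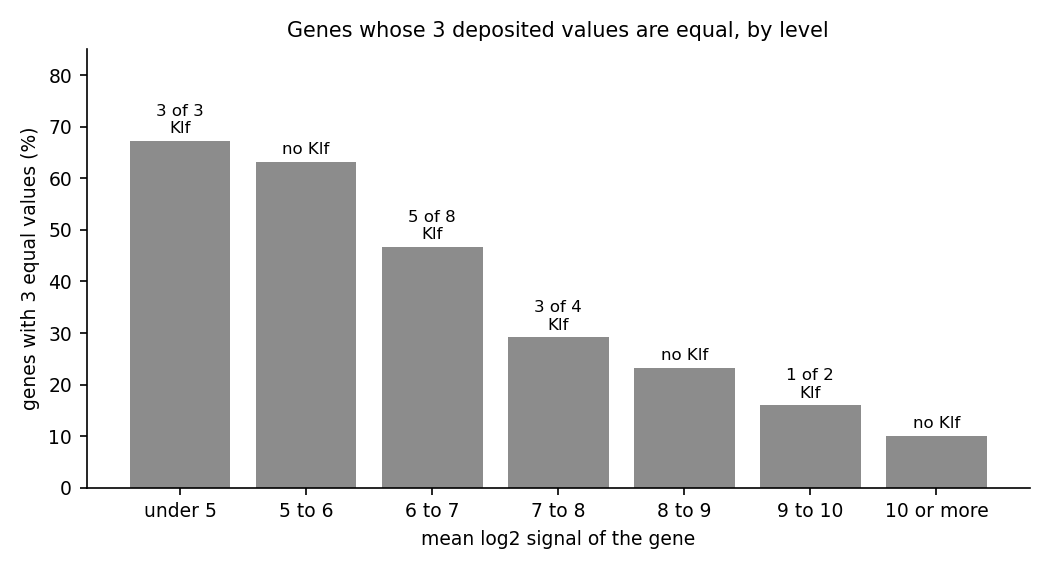
Share of genes with 3 equal values (percent, bars) by mean level on the log2 scale, with the number of Kruppel-like factors having equal values printed for each level. The share falls from 67.2% of genes under 5 to 10.0% of genes at 10 or more.

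Klf2 and Klf4, the flow-induced pair, were both above the limit. Klf2 was 7.59 in each of the 3 samples, a signal of 192 (limma adjusted p = 1.68e-06, and 0.00712 with the variance of other probesets). Klf4, also a regulator of vascular barrier function and of epithelial differentiation, was 7.45 in each, a signal of 175 (adjusted p = 1.71e-06, and 0.0109). With 3 equal values neither gene has a measured spread, and no sample can be called high or low.

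Klf6 and Klf7 are broadly expressed activators closely related to each other, Klf6 known from vascular injury and Klf7 from neurons. Klf6 was 7.78 in each sample, a signal of 219 (adjusted p = 1.68e-06, and 0.00436). Klf7 was 9.45, 8.75 and 9.17 in replicates 1, 2 and 3 (mean 9.12 ± 0.35, SD, n = 3), at a signal of 558 (adjusted p = 0.0105). All 3 Klf7 values were above the limit, with replicate 1 highest and replicate 2 lowest. Its SD was larger than that of 90.9% of all genes and of 80.6% of those whose mean reached a signal of 100. The call was lost without replicate 1 (adjusted p = 0.0851) or without replicate 3 (0.191), with the mean still 2.32 and 2.46 log2 units over the limit. Such a fit has 1 residual degree of freedom instead of 2, so a lost call need not mean that the level rests on 1 sample.

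Klf7 had the widest range of the 10 factors, and it was the member whose pattern over the samples could be followed. Its deviations from its own mean were 0.33, -0.38 and 0.05. Among 4442 genes with a mean at or over the limit and unequal values, the nearest deviations over the 3 samples were those of Rnf187, a ubiquitin ligase, at 8.11, 7.37 and 7.79 (root mean square difference 0.0164). Next came Bcl7b, a subunit of SWI/SNF chromatin remodellers, at 7.50, 6.83 and 7.24 (0.0167), and Ccn1, a secreted matrix protein, at 6.99, 6.31 and 6.77 (0.0239). With 3 samples this likeness is a description only. Some markers were also lowest in replicate 2. Thick ascending limb signal summed over 4 markers was 3209.3, 1796.8 and 2978.1, with 3 of 4 lowest in replicate 2. So were 7 of 10 proximal tubule and 4 of 5 distal and collecting tubule markers. Of the 9734 genes whose 3 values were not all equal, 2056 were lowest in replicate 2. The part of these cells in the Klf7 values was not tested.

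**Figure D3:**
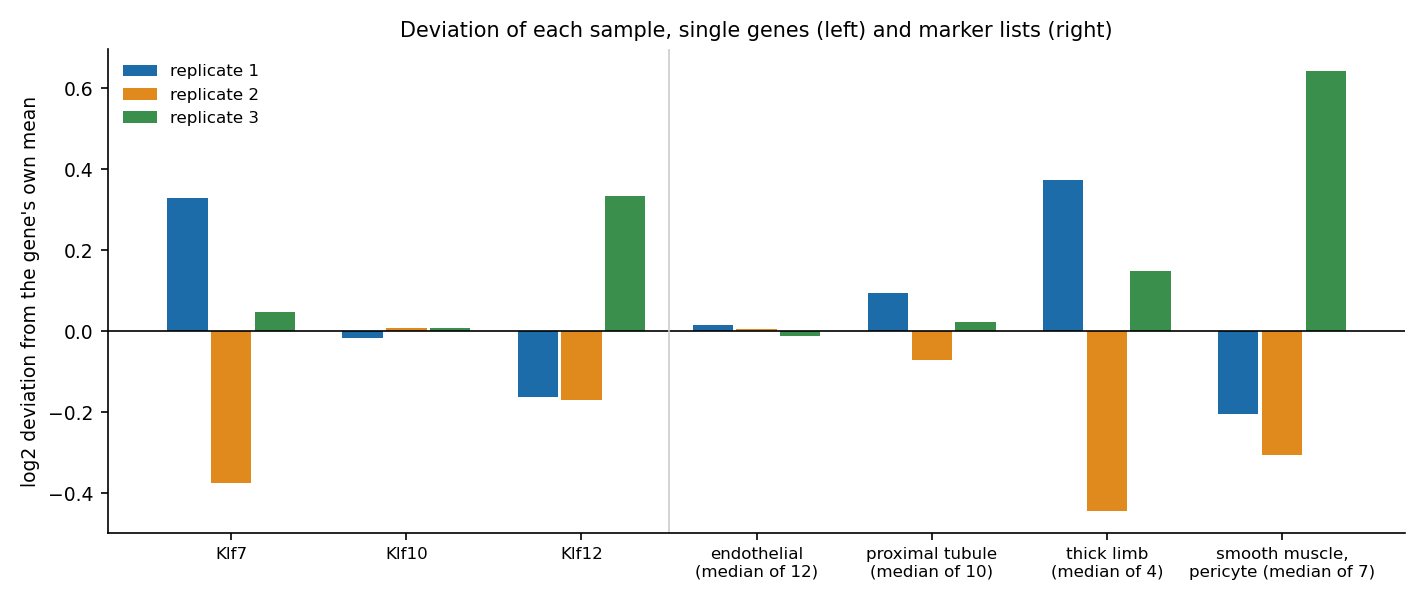
Deviation of each sample from the gene's own mean (log2 units) for Klf7, Klf10 and Klf12, and, right of the upright line, the median deviation over each marker list. Klf7 runs from 0.33 in replicate 1 to -0.38 in replicate 2, Klf12 is high in replicate 3, and of the lists drawn the thick limb (0.37, -0.44 and 0.15) and the mural markers (-0.20, -0.31 and 0.64) move most.

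Klf3 represents the repressor branch, which acts through the corepressor CtBP. It was 9.51 in each of the 3 samples, a signal of 727 (adjusted p = 1.68e-06, and 0.000406). Klf12, a second factor of that branch, was 7.59, 7.59 and 8.09 (mean 7.76 ± 0.29, SD, n = 3), at a signal of 216 (adjusted p = 0.0336). Replicate 3 alone was high, and without replicate 1 or 2 the adjusted p was 0.195 or 0.190. Without replicate 3 the call stayed (adjusted p = 0.00922), on the close values 7.59 and 7.59. In replicate 3 all 7 mural cell markers (smooth muscle and pericytes) were at their highest, with summed signals of 1639.9, 1646.8 and 3509.9. Of the 9734 genes whose 3 values were not all equal, 3039 were highest in that sample. The part of mural cells in the Klf12 value was not tested. Klf8, the remaining CtBP-binding factor, was 4.74 in each sample and below the limit (adjusted p = 3.54e-10).

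The factors that recruit the Sin3a corepressor lay close to the limit on either side. Klf9, an early target of glucocorticoid and thyroid hormone, was 6.71 in each sample, a signal of 105 (adjusted p = 5.01e-05), but the call was lost with the variance of other probesets (adjusted p = 1). Klf10, an early target of TGF-β, was 6.91, 6.93 and 6.93 (mean 6.92 ± 0.01, SD, n = 3), at a signal of 121 (adjusted p = 0.00145, 0.0513 in that version, and 0.0744 without replicate 3). Klf11, a second TGF-β-induced factor, was 6.63 in each, a signal of 99.0 (below, adjusted p = 0.000211, and 0.642). Klf13, known from lymphocytes and heart, was 6.43 in each sample, a signal of 86.5 (below, adjusted p = 3.71e-07, and 0.109). For these 4 genes the mean stayed on its side of the limit, but the call was lost in that version. Klf10, equal in replicates 2 and 3, kept its own variance there, and its p-value moved with the prior. Both other genes of this branch lay outside the 10. Klf14 was 6.95, 6.96 and 6.95, a signal of 124, and above the limit in both versions (adjusted p = 0.000113, and 0.0393). Its replicates 1 and 3 were equal, so both calls rest on an SD of 0.004. Klf16 was 6.69, 6.69 and 6.75, a signal of 105, and was called on neither side (adjusted p = 0.121).

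Klf15, a glucocorticoid-induced regulator of amino acid and lipid use that in kidney is best known from podocytes, was below the limit in both versions. It was 6.22 in each of the 3 samples, a signal of 74.7 (adjusted p = 4.62e-08, and 0.0205). The podocyte markers measured beside it, Nphs1 at 6.10, Wt1 at 5.41 and Synpo at 5.92 in each sample, were below as well.

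The rest of the family lay on both sides of the limit. Klf1, the erythroid factor, was 4.82 and Klf17, a germ cell factor, 4.50 in each sample, both below (adjusted p = 3.54e-10 for each). Klf5, known from gut and collecting duct epithelium, was 6.38 in each, a signal of 83.2 (below, adjusted p = 1.92e-07, and 0.0664 with the variance of other probesets). Of these 7 genes 2 were above (Klf12 and Klf14), 4 below (Klf1, Klf5, Klf8 and Klf17) and 1 on neither side, shares of 28.6% above and 57.1% below that are near the 22.9% and 65.0% of all genes. Over the whole family of 17 the counts were 9 above, 7 below and 1 on neither side. The related Sp factors, which share the GC box, had 2 of 8 above and 6 below (25.0% and 75.0%, near the shares of all genes). Sp1 was 7.18, 7.02 and 7.02 (adjusted p = 0.0243) and Sp3 was 8.02, 8.62 and 8.52 (adjusted p = 0.0169), and neither call remained without replicate 2 or without replicate 3. With the mean over all probesets of a gene, 1 Sp factor was above. The other Sp factors ran from 5.01 (Sp6) to 6.12 (Sp5).

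The genes listed upstream of Klf2 and Klf4 were the chain known to switch them on and genes that restrain it. Of these 15 genes, 11 were above the limit, 2 below and 2 on neither side (73.3% above and 13.3% below, beside 22.9% and 65.0% of all genes). Among the 11 were Hdac5, Hdac7, Pdcd10 and Heg1, listed for the restraining side. With the variance of other probesets 7 of the 15 were above, and with the mean over all probesets of a gene 9 were. Leaving out 1 replicate gave 8 to 9, but the 7 genes with 3 equal values are bound to keep their values there. At the top of the chain, the kinase Map3k3 was 7.23, 7.21 and 7.23 (adjusted p = 0.000123), while Map3k2 was 5.61 in each sample and below (adjusted p = 1.61e-09). Map2k5 (Mek5) was 6.90 in each (adjusted p = 4.72e-06, and 0.203 in the other version). Mapk7 (Erk5) was 6.93 in each (adjusted p = 3.93e-06, and 0.154). The middle of the chain thus lay near the limit.

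At its end, Mef2a was 9.65 in each sample (adjusted p = 1.68e-06) and Mef2d was 8.15, 8.15 and 8.29 (adjusted p = 0.00149). Mef2c was 7.75, 7.43 and 8.12 (adjusted p = 0.046), and its call was lost without any 1 of the replicates (0.131 to 0.281). The MEF2 genes were named after their values were seen, beside the MEF2 match before Klf2. Of the class IIa deacetylases that hold MEF2 silent, Hdac4 was 6.52 in each and below (adjusted p = 1.46e-06, and 0.247). Hdac5 at 7.02 and Hdac7 at 6.85 in each sample were above (adjusted p = 2.89e-06 and 6.8e-06), calls that were lost with the variance of other probesets (0.0852 and 0.319).

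Of the cerebral cavernous malformation proteins, which damp the chain, Pdcd10 was above the limit at 9.03, 9.27 and 8.55 (adjusted p = 0.0129), a call that was lost without any 1 of the replicates (0.0779 to 0.146). Krit1 was 7.31, 7.27 and 5.65 and Ccm2 was 6.51, 5.99 and 5.82, and neither was called on a side. Krit1 lay above the limit in replicates 1 and 2 and below it in replicate 3. Heg1, the membrane receptor that holds this complex, was 10.92, 10.86 and 11.03 and above (adjusted p = 0.000233). Hdac5, Hdac7, Pdcd10 and Heg1 were also named after their values were seen.

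Genes known to be raised by Klf2 and Klf4 had 5 of 9 above, 3 below and 1 on neither side (55.6% above and 33.3% below, beside 22.9% and 65.0% of all genes). Thbd (thrombomodulin, an anticoagulant receptor) was 9.78, 9.77 and 9.63 (adjusted p = 0.000443). S1pr1 (a sphingosine phosphate receptor of vessel stability) was 10.39, 10.22 and 9.91 (adjusted p = 0.00258). Gja4 (a gap junction protein of arteries) was 9.15, 8.75 and 9.12 (adjusted p = 0.00483). The S1pr1 call was lost without replicate 2 (0.0626) and the Gja4 call without replicate 1 (0.0767) or 3 (0.128). Timp3, a protease inhibitor, and Aqp1, a water channel that the proximal tubule also makes in quantity, had means of 11.79 ± 0.02 and 11.03 ± 0.03 (SD, n = 3). Nos3, the endothelial nitric oxide synthase, was 7.66, 7.32 and 6.92, above the limit in each sample but not by the test (adjusted p = 0.147). Below were Nppc (C-type natriuretic peptide) at 5.52, 5.59 and 5.52, Ptgds (prostaglandin D synthase) at 6.26, 6.31 and 6.26, and Cyp1b1 at 5.41 in each.

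Genes known to be restrained by Klf2 and Klf4 had 2 of 8 above and 6 below, shares of 25.0% and 75.0% that are near the 22.9% and 65.0% of all genes. Edn1, the vasoconstrictor endothelin-1, was 8.21, 8.43 and 8.21 (adjusted p = 0.00327). Vcam1, an adhesion molecule also made by tubule cells, was 9.46, 9.72 and 8.71 (adjusted p = 0.0197), and without replicate 1, 2 or 3 its adjusted p was 0.181, 0.141 or 0.074. The Edn1 call was lost without replicate 1 (0.0618) or 3 (0.101). Sele, E-selectin, was 5.70, 5.70 and 5.60 (below, adjusted p = 0.00049). Icam1, a further adhesion molecule, was 6.62, 6.56 and 6.56 (below, adjusted p = 0.0494). In the repeated test, where it kept its own variance, its adjusted p was 0.306. This call too was lost without replicate 2 (0.19) or 3 (0.231). The remaining 4, Ccl2, Ace, Angpt2 and F3, had means of 5.30 (F3) to 6.31 (Angpt2). With no sample lacking Klf2 or Klf4, none of these levels can be tied to either factor here.

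**Figure D4:**
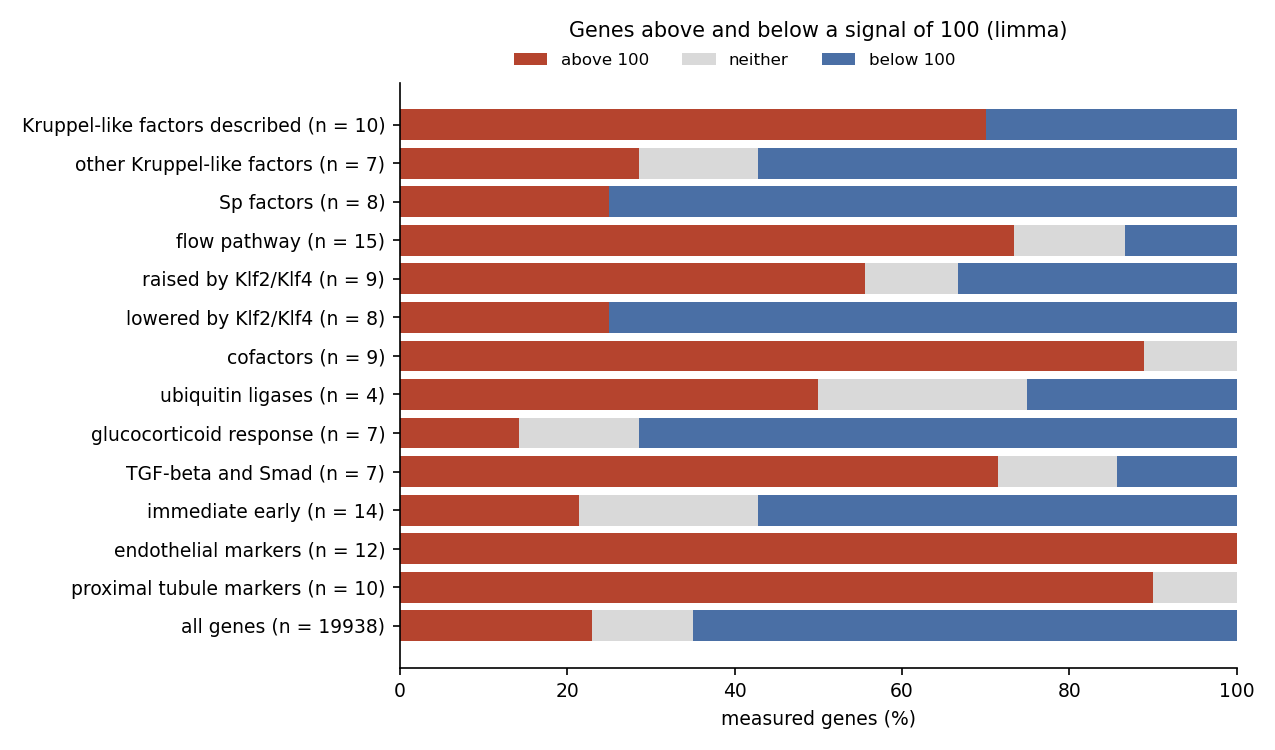
Share of the measured genes of each list (percent, stacked bars, n beside the name) above, on neither side of and below a signal of 100 (limma adjusted p under 0.05), with all genes in the lowest bar. The 10 Kruppel-like factors have 7 above and 3 below. The flow pathway list, which also holds genes that restrain the chain, has 11 of 15 above, and the genes restrained by Klf2 and Klf4 2 of 8.

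The proteins that KLFs recruit were nearly all above the limit, with 8 of 9 above (88.9%, beside 22.9% of all genes) and 0 below (0 also at an unadjusted p under 0.05), and 6 above with the variance of other probesets. Ctbp1, the partner of Klf3, was 7.71, 7.52 and 7.31 (adjusted p = 0.0267) and Ctbp2 was 7.04 in each sample (adjusted p = 2.7e-06, and 0.0727). Sin3a, the partner of Klf9, Klf10, Klf11 and Klf13, was 7.11, 7.11 and 6.98 (adjusted p = 0.0154), and Sin3b was 6.73 in each (adjusted p = 2.84e-05, and 0.879). Without replicate 1 or 2, 5 of the 9 were above, and without replicate 3, 6, with Ctbp1 lost each time (0.128 to 0.213) and Sin3a without replicate 1 or 2 (0.146 or 0.145). Kat2b, an acetyltransferase, was the gene on neither side, at 6.65, 6.46 and 6.46. Of 4 ubiquitin ligases known to act on KLFs, Wwp1 was 8.67 in each sample and Smurf2 10.25, 10.90 and 10.58, both above (Smurf2 at an adjusted p of 0.00371, and 0.122 without replicate 3). Smurf1 was 6.60 in each and below (adjusted p = 1.89e-05, and 0.518). Fbxw7 was 10.04, 8.80 and 7.97, above in each sample but not by the test (adjusted p = 0.0981).

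Of the TGF-β pathway, the input of Klf10 and Klf11, 5 of 7 genes were above, 1 below and 1 on neither side (71.4% above, beside 22.9% of all genes), with 3 above in the other version. Tgfb1, a ligand, was 6.79 in each sample (adjusted p = 1.13e-05, and 0.516). Tgfbr2, a receptor, was 7.99 in each and Smad2, a signal carrier, 7.81 in each, while Tgfbr1, the partner receptor, was 5.65 in each and below. Smad3 was 6.42, 6.87 and 6.42 and was called on neither side. Smad4, the shared carrier, was 7.97, 8.01 and 8.01, and Smad7, the inhibitor, 6.70, 6.70 and 6.68 (adjusted p = 0.02, 0.924 in the other version, and 0.168 without replicate 1 or 2).

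Of the glucocorticoid response, the input of Klf9 and Klf15, 1 of 7 genes was above, 5 below and 1 on neither side, shares of 14.3% above and 71.4% below beside 22.9% and 65.0% of all genes. Nr3c1, the glucocorticoid receptor, was 8.46, 9.04 and 8.88 (adjusted p = 0.00995, and 0.0935 without replicate 2 or 0.184 without replicate 3). Its known targets Per1, at 6.10 in each sample, Fkbp5, at 6.31, 5.73 and 5.97, and Tsc22d3, at 6.39 in each, were below, as were Zbtb16 and the mineralocorticoid receptor Nr3c2. The Tsc22d3 call was lost in the other version (adjusted p = 0.0739). Without replicate 1, 2 or 3 the number below was 3, 2 or 4. Sgk1, a kinase induced by both steroid hormones, was 8.19, 8.12 and 7.10 (adjusted p = 0.128). It was called above in the other version (0.0473), where it kept its own variance. That version gave 2 above and 4 below in this list.

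Klf2, Klf4, Klf6 and Klf10 can also respond within minutes to cell handling, as immediate early genes do. Of 14 such genes measured, 3 were above (Jun, Dusp1 and Zfp36), 8 below and 3 on neither side, shares of 21.4% above and 57.1% below beside 22.9% and 65.0% over all genes. Fos was 5.89 and Fosb 5.96 in each sample, both below (adjusted p = 5.65e-09 and 8.26e-09), and Egr1 was 6.16, 6.12 and 6.12 (adjusted p = 0.000354). Jun was 8.67, 8.67 and 8.65 (adjusted p = 3.09e-05), Dusp1 was 9.01, 8.61 and 8.32 (adjusted p = 0.0154, and 0.0744 to 0.157 without any 1 replicate), and Zfp36 was 6.73 in each (adjusted p = 3.19e-05, and 0.92 with the variance of other probesets). Btg2, Hspa1a and Ccn1 were on neither side. The part of the digestion and sorting steps in the KLF levels was not tested.

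**Figure D5:**
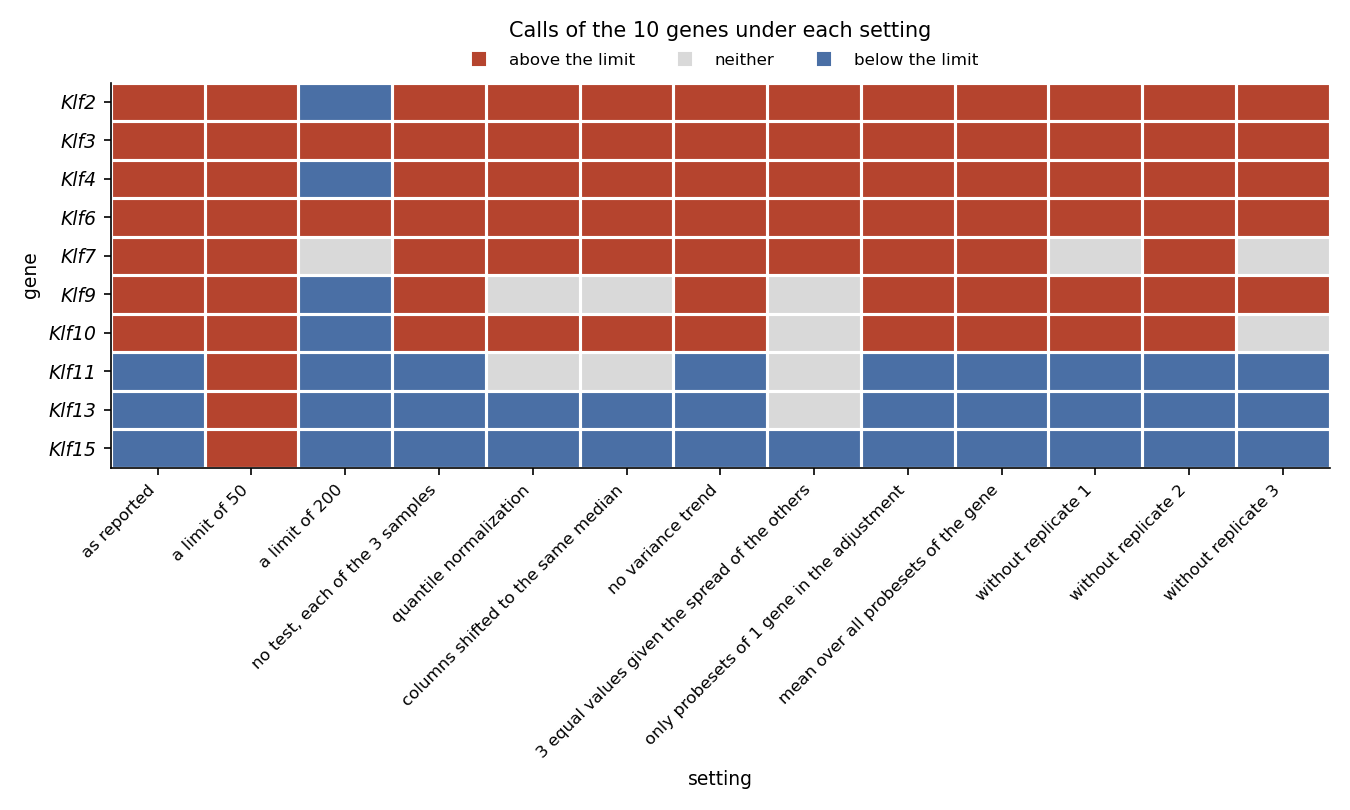
Call of each of the 10 Kruppel-like factors (rows) as reported and under each alternative setting (columns), red above the limit, blue below it and grey neither. Klf3 and Klf6, both with 3 equal values, are above under every setting. Klf7 is grey under 3 settings, with its mean over the limit in each. Klf9, Klf10, Klf11 and Klf13 turn grey when equal values are given the spread of the others.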

How the data were processed

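Adult cortical endothelial cells were profiled in 3 samples of 1 group on an Affymetrix whole-transcript mouse gene array. The authors normalized by RMA in GeneSpring, per the methods, and the submitters' processing notes name Affymetrix Expression Console. The deposited values, on the log2 scale with 5 decimals, were used unchanged. The sources used here name neither the set of arrays normalized together nor how equal values arose, nor the genome build. Of 35557 probesets, the platform annotation gave 21789 a single gene, 1621 several and 12147 none.

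Each probeset was tested against a signal of 100 with a one-sample limma model (limma 3.58.1, R 4.3.3, variance trend, 2 residual and 0.297 prior degrees of freedom), one-sided in each direction, its p-values adjusted by Benjamini-Hochberg over the whole array, with calls at an adjusted p under 0.05. The model was tested on simulated data that held no equal values, so that test does not cover genes with equal values. The paper calls its samples independent biological samples, but the labels do not say whether the kidneys came from separate mice. For genes with unequal values, p-values measure only the spread between these samples, moderated by the prior. Where 2 of the 3 values are equal, as for Klf10 and Klf14, that spread may not be the spread between kidneys. The repeated test leaves it as it is. A gene with equal values in every sample has no such spread. Its p-value rests on that equality or, in the repeated test, on the variance of other probesets. A signal is 2 to the power of the log2 value, and that of a gene is taken from its mean log2 value. The number of arrays limits the precision.

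The 10 factors and the gene lists (19 lists, 155 genes, 7 without a probeset of their own) were chosen with earlier results of these data known. Every KLF was named, and of each other list up to 4 genes in the order written and every gene where 5 or fewer made up a count. For Klf2, Klf4 and the member with the largest range, the 3 genes with the nearest deviations were named, and none for a member with 3 equal values. Alternatives changed the limit, the normalization, the variance model, the treatment of equal values, the probesets adjusted over, the summary of probesets and the replicates used. Promoter windows came from RefSeq.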

Additional observations from a re-analysis of the deposited data

How the results depend on the processing

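The limit mattered most. At a signal of 50, 10 of the 10 factors were above and 0 below (limma, 0 also at an unadjusted p under 0.05), and Klf11, Klf13, Klf15 and Klf5 moved to the upper side, with means 0.99, 0.79, 0.58 and 0.73 log2 units over the limit. At a signal of 200, 2 were above (Klf3 and Klf6) and 7 below, and Klf2, Klf4, Klf9, Klf10, Klf14 and Klf16 moved to the lower side, with distances of -0.0553, -0.19, -0.93, -0.72, -0.69 and -0.93. Klf7 was then on neither side (limma adjusted p = 0.0553), though its mean was 1.48 log2 units over that limit. Klf6 was only 0.13 over it, and its call rests on 3 equal values. Of the other 7 KLFs 4 were above at 50 and 0 at 200 (limma, 0 also at an unadjusted p under 0.05). Giving genes with equal values the median variance of the rest left 1 of the 10 below. Quantile normalization and columns shifted to the same median each ended 2 calls, those of Klf9 and Klf11. Moderation without a trend, adjustment over probesets of 1 gene and the mean over all probesets ended 0 of the 10. The last of these could not change a level, since each of the 10 had 1 probeset of its own. Leaving out 1 replicate, which leaves 1 residual degree of freedom, gave 5 to 7 of the 10 above and 3 below each time. At an unadjusted p under 0.05 (limma) 7 were above each time. Of the other 7 KLFs 1 to 3 were above. A gene with 3 equal values is bound to keep its value there. Klf16, equal in replicates 1 and 2, was called above without replicate 3, a call that rests on that equality. Apart from what the construction of a setting shows, the cause was not tested. No paired analysis was possible because all samples belong to 1 group.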

Other observations

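The equal values were also shared between genes. The 14394 probesets with 3 equal values held 3349 distinct values. Klf2, Klf3, Klf6, Klf11 and Klf5 each had a value that no other of these probesets had, and the value of Klf13 was held by 2. The value of Klf4 was held by 6 probesets in all 3 samples, that of Klf9 by 14, of Klf15 by 42, of Klf8 by 46, of Klf1 by 75 and of Klf17 by 131. Ace, a gene that Klf2 and Klf4 are known to restrain, had the same 6.22 as Klf15.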
